A study of Sus scrofa with 8 samples.

Results

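The draft pig genome Sscrofa10.2 holds, beside its chromosomes, short pieces of sequence that could not be assigned a place, the unplaced scaffolds, whose names begin with GL or JH. Of the 4028 long non-coding RNA (lncRNA) loci listed for pig liver, 295 lay on such scaffolds, and the 265 of these with a mean below 10 CPM over the 4 livers are described here. They were selected on their scaffold and on that mean, so their low level is a property of the choice and not a result. The levels are counts per 1000000 reads of the library (CPM), with no correction for the length of the locus, so levels are compared between livers and not between loci.

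Liver tissue came from 4 unrelated, healthy female Yanan pigs, a Chinese indigenous breed kept as domestic pigs. A pair of them were young sows of 180 days and the other two were old sows of 8 years, so each age group held 2 livers and each liver 1 RNA library. Total RNA was depleted of ribosomal RNA and sequenced, and the comparison of old with young livers asks how liver transcription differs with age. According to the paper, the young sows had never given birth, while the old sows had done so over many years. Age and reproductive history therefore cannot be told apart here. The labels name no treatment or genetic change in either group and no batch.

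LncRNAs are long transcripts without evident coding capacity, often spliced, and as a class they are less abundant and more restricted to single tissues than mRNAs. Loci found by assembling reads, which carry the prefix MSTRG, rest on the reads alone and have no established function. On an unplaced scaffold the neighbouring genes are mostly not known either, and a scaffold can hold part of a gene whose remainder was assembled elsewhere, or a further copy of a repeated sequence. Reads can then be shared between near-identical copies, and the values of all these loci carry that uncertainty.

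On the listed mRNAs and lncRNAs fell 51494798 and 52207649 reads of the young livers, against 28324675 and 31630060 of the old, and 1 read was worth between 0.0109 and 0.0162 CPM. A locus listed at 0 can have up to 3 reads' worth of RNA by counting error alone, which is 0.0327 and 0.0347 CPM in the young livers against 0.0487 and 0.0418 CPM in the old. Such limits cover counting error only. Of 10 hepatocyte genes 7 were found in the table and none was listed at 0, and their summed level was 48131 and 55174 CPM in the young livers against 33301 and 40213 CPM in the old livers. In the old liver of replicate 1, 13 of 20 interferon-stimulated genes were found and summed to 1871 CPM, against 45.9 to 65.0 CPM in the other 3 livers. In bulk tissue, fewer cells of a type and less RNA per cell cannot be told apart. Where 4 values are given in a row, the young livers of replicates 1 and 2 come first and the old livers of replicates 1 and 2 follow.

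The 265 loci were spread over 230 scaffolds. On 201 of these scaffolds 1 locus was found, on 23 there were 2, and on 6 there were 3. GL scaffolds carried 215 of the loci and JH scaffolds 50. The loci spanned from 259 to 118442 bases with a median of 3262, against a median of 5378.5 for the 3590 lncRNA loci on chromosomes that also had a mean under 10 CPM. The means of the scaffold loci over the 4 livers ranged from 0.004 to 9.52 CPM with a median of 0.366 CPM, and the median of the chromosomal loci was 0.40 CPM. Just inside the limit of 10 CPM lay MSTRG.194461 with a mean of 9.52 CPM, and just outside it lay MSTRG.208921, MSTRG.205873 and MSTRG.209234 with means of 10.8, 11.1 and 11.4 CPM.

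More of the scaffold loci had reads in the old livers than in the young livers. Above 0 were 141 and 117 of 265 in the young livers against 234 and 228 in the old, which is 53.2%, 44.2%, 88.3% and 86.0%. The groups did not overlap. The mean was 129 ± 17.0 loci in young and 231 ± 4.24 in old livers (SD, n = 2 each), and the two-sided exact permutation test gave p = 0.333, the smallest p that 2 livers against 2 can give. The young libraries were the deeper ones: with all libraries reduced to the reads of the smallest, the expected numbers were 141, 117, 234 and 227. The summed hepatocyte genes, mostly albumin (ALB) reads, were lower in both old livers, and their part in this order was not tested. Of the 7 genes only ALB, at 29468, 35205, 16534 and 23978 CPM, and APOB, at 213, 185, 119 and 149.6 CPM, were lower in both old livers, and the other 5 overlapped between ages.

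In raw reads, not adjusted for the deeper young libraries, the old livers had more loci with few and moderate numbers of reads and fewer with many. Between 1 and 10 reads were counted for 6 and 13 loci in the young livers, but for 67 and 53 loci in the old. Between 11 and 30 reads were counted for 26 and 14 loci in young and 59 and 69 in old livers, and between 31 and 100 reads for 53 and 28 against 60 and 60. At the other end, over 100 reads were counted for 56 and 62 loci in the young livers against 48 and 46 in the old. This last order did not hold in CPM, where 58 and 65 loci in young and 76 and 62 in old livers reached at least 1 CPM. Among the loci above 0, the median was 0.773 and 1.28 CPM in the young livers against 0.422 and 0.376 CPM in the old. The scarcity of low read numbers in the young livers was not particular to the scaffolds, since loci of 1 to 10 reads made up 7.12% and 9.23% of the chromosomal lncRNA loci above 0 in young livers and 27.1% and 24.5% in old livers. Among mRNAs these shares were 9.71% and 8.35% against 20.0% and 16.4%.

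**Figure D1:**
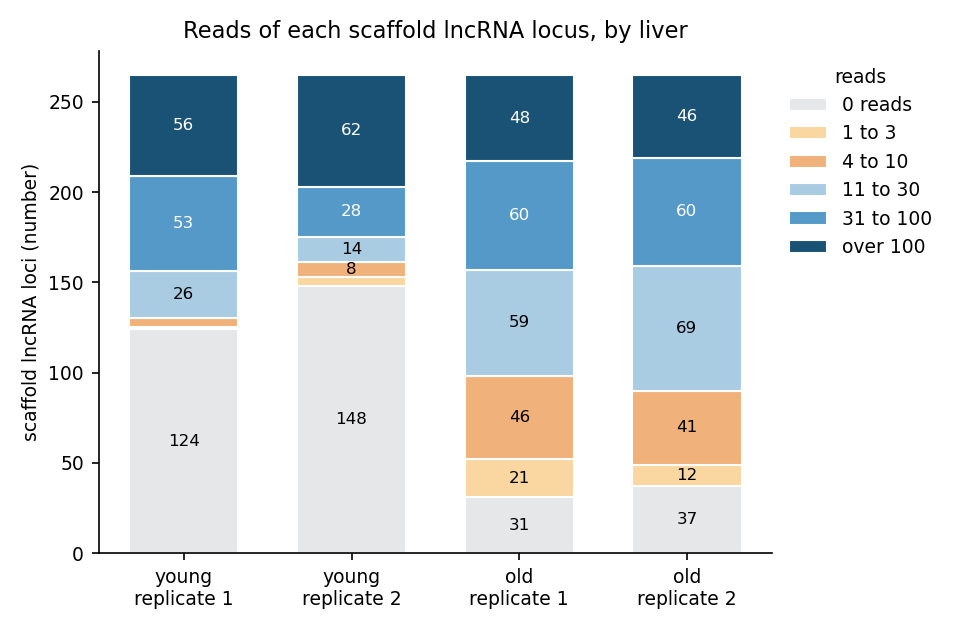
Number of scaffold lncRNA loci (y axis, of 265) in each of the 4 livers (x axis), stacked by the number of reads of the locus from 0 at the bottom to over 100 at the top. The grey part, loci with 0 reads, is 124 and 148 in the young livers against 31 and 37 in the old, and the classes of 1 to 10 reads are wide only in the old livers.

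How far detection separated the ages depended on the level required. With more than 3 reads 140 and 112 loci were detected in the young livers against 213 and 216 in the old, with more than 10 reads 135 and 104 against 167 and 175, and with at least 0.1 CPM 135 and 105 against 185 and 191. At these limits the old livers stayed above the young livers. With at least 1 CPM the numbers were 58 and 65 in young and 76 and 62 in old livers, and the groups overlapped (two-sided exact permutation test, p = 0.667).

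Chromosomal lncRNA loci with a mean under 10 CPM showed the same order of the livers, with 58.3% and 48.6% above 0 in young livers and 87.6% and 82.8% in old livers. The share of scaffold loci above 0 minus the chromosomal share was -5.09 and -4.46 percentage points for the young pair, and 0.697 and 3.22 points for the old pair. The gap thus moved by 6.74 points from young to old, without overlap of the groups. With 2 livers of each age the exact permutation test cannot go below p = 0.333, which is the value it gave.

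By level, the ages were furthest apart among the weakest loci. The classes were cut on the mean of the same 4 livers, and no locus was listed at 0 in all 4. The order of the classes is therefore partly fixed by how they were cut. Chromosomal loci with a mean under 0.1 CPM went the same way, with 136 and 83 of 963 above 0 in young livers against 699 and 570 in old. Of the 68 loci with a mean under 0.1 CPM, 4 and 4 were above 0 in the young livers against 48 and 45 in the old. Of the 50 between 0.1 and 0.3 CPM, 25 and 18 were above 0 in young and 44 and 44 in old livers, and of the 75 between 0.3 and 1 CPM, 51 and 39 against 71 and 70. Of the 45 between 1 and 3 CPM the numbers were 35 and 31 against 44 and 43. Of the 27 loci from 3 to 10 CPM nearly all were above 0 at both ages, with 26 and 25 in young and 27 and 26 in old livers. All 30 scaffold loci with a mean of 10 CPM or more, which are not among the 265, were above 0 in all 4 livers.

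**Figure D2:**
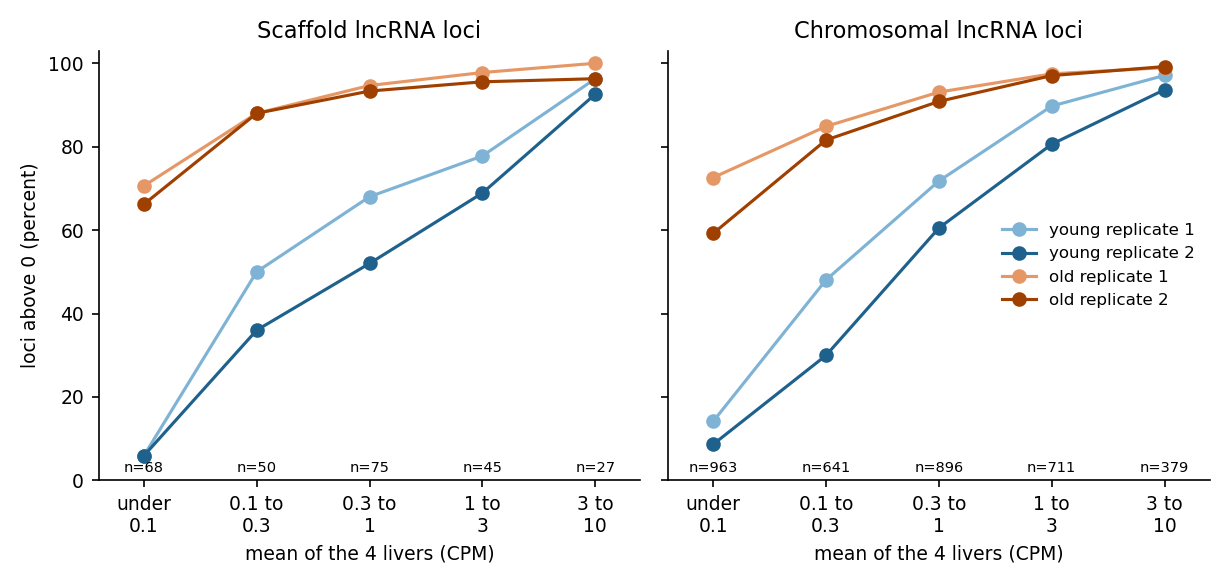
Share of lncRNA loci above 0 (y axis, percent) in each liver against the mean of the 4 livers (x axis, 5 classes in CPM), for scaffold loci on the left and chromosomal loci with a mean under 10 CPM on the right, with the number of loci in each class above the axis. In both panels the old livers lie far above the young livers in the lowest class and come close to them in the highest.

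Sorted by where they were found, 86 of the 265 loci were above 0 in all 4 livers, 98 in old livers only and 3 in young livers only. The 98 loci are 37.0% of the set, against 32.7% of all 4028 lncRNAs found in old livers only. The 3 loci are 1.13%, against a background of 2.83%. The share found in old livers only lay near that of all lncRNAs, and the share found in young livers only lay below it. Without the old liver of replicate 1, the counts were 73 in old and 12 in young livers only, and without that of replicate 2 they were 75 and 8. Leaving out an old liver can only lower the first count and raise the second, or leave them unchanged. The same counts were not made for all lncRNAs, so these numbers describe the loci only. Of the 98 loci, 50 were above 0 in both old livers (18.9% of the 265, against 15.5% of all lncRNAs) and 48 in 1 of them. Over both old livers together these 98 loci had between 1 and 625 reads with a median of 16.5. They supplied 15.5% and 13.3% of the summed level of the 265 loci in the old livers.

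The 3 loci found in young livers only each came from 1 liver. MSTRG.204085, on GL896044.1:9656-10154, was at 1.79 CPM in the young liver of replicate 2 from 155 reads. MSTRG.201494, on GL895118.1:2872-3632, was at 0.936 CPM in the young liver of replicate 1 from 86 reads, and MSTRG.203385 had 2 reads in the young liver of replicate 2. No locus was above 0 in both young livers and listed at 0 in both old livers, a pattern seen in 0.149% of all lncRNAs.

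The excess of loci found in one age only narrowed as more reads were asked for. With more than 10 reads as the limit, 59 loci were found in old livers only and 14 in young livers only (22.3% and 5.28% of the 265), against 19.4% and 7.47% of all lncRNAs. With at least 1 CPM the counts were 33 in old only and 33 in young only, 12.5% each, against 8.57% and 13.4% of all lncRNAs. For all lncRNAs at that limit the loci found in young livers only were thus the more numerous, and for the scaffold loci the numbers were equal. This difference between the sets was not tested. Detection also varied between livers of 1 age: 50 loci were above 0 in the young liver of replicate 1 and at 0 in that of replicate 2, and 26 the other way, while 34 and 28 loci were found in only 1 of the old livers.

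Loci on GL and on JH scaffolds showed the same order of the ages. On GL scaffolds 115 and 100 of 215 loci were above 0 in young livers and 192 and 183 in old livers, and 75 were found in old livers only (34.9%). On JH scaffolds these numbers were 26 and 17 of 50 in young and 42 and 45 in old livers, with 23 found in old livers only (46.0%). The order of the livers was also the same in long and short loci. Among the 132 loci longer than the median 76 and 61 were above 0 in young livers and 117 and 123 in old livers, and among the 133 others 65 and 56 against 117 and 105.

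The summed level of the 265 loci did not follow detection. It was 262 and 298 CPM in the young livers against 292 and 262 CPM in the old, so the ages overlapped fully. The means were 280 ± 25.3 and 277 ± 21.1 CPM (SD, n = 2 each), a ratio of old to young of 0.988 (two-sided exact permutation test, p = 0.667). Scaling the libraries by TMM, which sets libraries on the level of the typical gene, turned the ratio to 1.15 with both old livers above both young livers. The 193 loci with a mean under 1 CPM had summed levels of 45.8 and 43.2 CPM in the young and 71.4 and 61.5 CPM in the old livers. Their ratio was 1.49 without overlap of the groups (p = 0.333 for this ratio and for that with TMM, exact permutation test). This class was cut on the mean of the same 4 livers and holds most of the loci found in old livers only. Its ratio is therefore not independent of detection. Chromosomal loci with a mean under 10 CPM had a ratio of 0.830 without TMM, which can be set beside the 0.988 only. Their ratios with TMM or for means under 1 CPM were not computed.

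**Figure D3:**
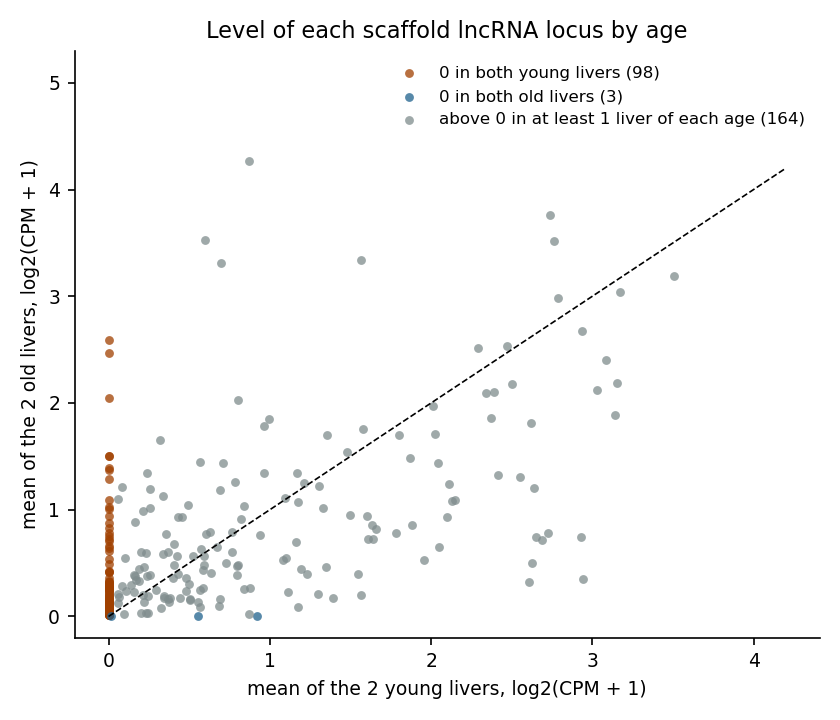
Mean of the 2 old livers (y axis) against the mean of the 2 young livers (x axis), both as log2(CPM + 1), for each of the 265 scaffold loci, with the line of equal level dashed. The 98 loci found in old livers only stand along the left edge, mostly below 1, the 3 found in young livers only lie on the bottom edge, and the loci found at both ages lie on either side of the line.

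Locus by locus, both old livers were above both young livers for 75 of the 265 loci, both were below for 40, and for 150 the ages overlapped. The 75 are 28.3% of the set against 24.5% of all 4028 lncRNAs, and the 40 are 15.1% against 14.9%. With TMM the numbers were 77 and 31, which is 29.1% and 11.7% of the set against 26.1% and 11.7% of all lncRNAs. The composition of the groups differed. Of the 75, 50 were listed at 0 in both young livers and 12 were above 0 in all 4 livers, while of the 40, 35 were above 0 in all 4 livers and none was listed at 0 in both old livers. Among the 86 loci above 0 in all 4 livers the balance was therefore the other way, with 12 above and 35 below in old livers (14% and 40.7%), against 12.2% and 34.5% of the 1654 lncRNAs above 0 in all 4 livers. Over all 265 loci the median of the log2(CPM + 1) difference between old and young was 0.08, and over all lncRNAs it was 0.04.

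The test across lncRNAs used limma on log2(CPM + 1) for the 3228 lncRNAs above 0 in at least 2 livers, which included 214 of the 265 loci. The other 51 loci, 48 found in 1 old liver and 3 in 1 young liver, were not tested. Of the 214 loci, 50 passed this filter through the old livers alone and 0 through the young livers alone, against 626 and 6 of all 3228. At an adjusted p under 0.05 (Benjamini-Hochberg over all 3228) and a more than 2-fold change, limma called 0 of the scaffold loci and 0% of all lncRNAs tested, and the smallest adjusted p was 0.181. At an unadjusted p under 0.05 limma gave 23 loci higher and 12 lower in old livers, where 7.68% and 6.54% of all lncRNAs tested were higher and lower. On the reads recovered from the CPM values, edgeR's exact test at the same limits called 3 loci higher and 0 lower, against 0.713% and 0.062% of all lncRNAs tested. All 3 had passed the filter through the old livers alone, so these calls describe the loci only. At an unadjusted p under 0.05 the exact test gave 52 loci higher and 1 lower, where 19% and 0.836% of all lncRNAs tested were higher and lower. The quasi-likelihood test of edgeR called 0, and at an unadjusted p under 0.05 it gave 55 higher and 2 lower, where 21.7% and 1.33% of all lncRNAs tested were higher and lower. DESeq2 called 25 higher and 1 lower, against 10.4% and 0.527% of all lncRNAs tested. The exact test with a trended dispersion called 21 higher and 0 lower, against 8.21% and 0.217%. With each of these tools the higher loci outnumbered the lower ones among all lncRNAs as well, and the number of calls depended on the tool. The higher loci of every tool included loci that had passed the filter through the old livers alone. All these counts therefore describe the loci only.

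MSTRG.195678, on GL893573.1:25926-29266, was the locus with the smallest limma p among the scaffold loci. Neither young liver had a read, and the old livers stood at 3.20 and 3.06 CPM from 197 and 220 reads. The old livers agreed closely and the groups did not overlap. Against 3 reads in each young library, the old mean was at least 93.0-fold higher. The difference was 2.05 on the log2(CPM + 1) scale (SE 0.11, adjusted p = 0.181, limma), and without any 1 liver it lay between 2.02 and 2.07. The exact test of edgeR gave an adjusted p of 0.0202 and DESeq2 one of 3.32e-05. The locus was chosen for this pattern, so these values describe it.

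The lncRNAs whose levels were most like those of MSTRG.195678, by the Euclidean distance of log2(CPM + 1) over the 4 livers, all lay on chromosomes. So did most of the 4028 lncRNAs, 3590 with a mean under 10 CPM and 107 with a higher mean. The nearest was MSTRG.103704 on chromosome 2 at 0, 0, 2.68 and 3.33 CPM over the 4 livers, a distance of 0.211. MSTRG.11611 on chromosome 1 followed at a distance of 0.279, and MSTRG.92478, MSTRG.217750 and MSTRG.168001, on chromosomes 18, X and 8, at 0.331, 0.451 and 0.493.

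A further 3 loci with 0 reads in both young livers were named for having the most reads in both old livers. They were chosen for this pattern, so their values and adjusted p-values describe them only. MSTRG.191168, on GL892353.1:22843-25180, stood at 3.30 and 5.75 CPM in the old livers from 203 and 413 reads, at least 134-fold higher than 3 reads in each young library. Its difference was 2.43 on the log2(CPM + 1) scale (SE 0.29, adjusted p = 0.198, limma), and the exact test of edgeR called it with an adjusted p of 0.00317, as did DESeq2 with 3.32e-05. Its neighbour MSTRG.191167, which lies 418 bases before it on the same scaffold, also had no read in a young liver and had 6 and 16 reads in the old livers.

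MSTRG.200460, on GL894787.2:42606-72087, was at 0, 0, 9.12 and 0.891 CPM, and so rested largely on the old liver of replicate 1, with 561 reads against 64 in that of replicate 2. The old mean was at least 149-fold higher than 3 reads in each young library. Its difference of 2.13 on the log2(CPM + 1) scale (SE 0.98, adjusted p = 0.475, limma) became 0.92 without the old liver of replicate 1 and 3.34 without that of replicate 2. It was the last of the loci called by the exact test of edgeR (adjusted p = 0.00699), and DESeq2 gave it an adjusted p of 0.000259. The old liver of replicate 1 is the one with high interferon-stimulated genes, and their part in this value was not tested.

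MSTRG.209116, on JH118877.1:13502-22496, was at 1.04 and 2.65 CPM in the old livers from 64 and 190 reads. The old mean was at least 54.7-fold higher than 3 reads in each young library. The exact test of edgeR gave an adjusted p of 0.0658, DESeq2 called it with 0.000327, and limma a difference of 1.45 on the log2(CPM + 1) scale (SE 0.36, adjusted p = 0.288).

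Among loci with a mean of at least 1 CPM, 14 of 72 had both old livers above both young livers and 23 had both below. For all 1315 lncRNAs with a mean of at least 1 CPM the shares were 15.7% above and 30% below, and for the 72 loci they were 19.4% and 31.9%. The 8 in each direction with the smallest limma p are described here, and picking them by that p favours large differences. MSTRG.195678 and MSTRG.191168, described before, are among the 8 above.

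MSTRG.194461, on GL893289.1:2264-3100, was the locus with the highest mean. It stood at 0.392, 1.27, 8.08 and 28.4 CPM from 36, 110, 497 and 2037 reads. Both old livers were above both young livers, but the old livers differed from each other by more than the young livers did. The difference was 3.20 on the log2(CPM + 1) scale (SE 0.75, adjusted p = 0.286, limma), and the exact test of edgeR gave an adjusted p of 0.0502. DESeq2 called the locus with an adjusted p of 0.00666.

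MSTRG.205146, on GL896315.1:186-1687, was at 1.02, 0, 13.7 and 7.32 CPM, a difference of 2.96 on the log2(CPM + 1) scale (SE 0.54, adjusted p = 0.228, limma). MSTRG.204701, on GL896225.1:14713-19558, was at 1.24, 0, 6.63 and 11.2 CPM, a difference of 2.69 (SE 0.55) on the same scale. Both loci were present in the young liver of replicate 1 and listed at 0 in that of replicate 2. MSTRG.204949, on GL896281.1:5178-9394, was at 0.414, 0.081, 2.44 and 1.84 CPM, so that it had reads in every liver and differed by 1.34 (SE 0.22). DESeq2 alone called it, with an adjusted p of 0.0446.

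The last of the 8 were clearly present at both ages. MSTRG.199891, on GL894621.1:30735-38147, stood at 6.69, 4.67, 14.1 and 11.1 CPM and differed by 1.03 on the log2(CPM + 1) scale (SE 0.25). MSTRG.201450, on GL895101.1:21-790, stood at 0.697, 3.24, 10.5 and 7.75 CPM and differed by 1.90 (SE 0.57). Its young pair was further apart than its old pair on the log2(CPM + 1) scale, though not in CPM. This locus begins within the first 100 bases of its scaffold, as did 5 others of the 265, so its transcript can run past the end of the assembled sequence.

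Of the 8 loci with both old livers below both young livers, 7 kept reads in every liver. MSTRG.192403, on GL892730.2:161608-194588, was at 6.82, 4.43, 0.942 and 0.487 CPM, a difference of -1.94 on the log2(CPM + 1) scale (SE 0.29, adjusted p = 0.219, limma). MSTRG.199572, on GL894524.1:23173-26305, was at 3.54, 6.81, 0.455 and 0.376 CPM, a difference of -2.07 (SE 0.34, adjusted p = 0.228, limma), and DESeq2 alone called it, with an adjusted p of 0.0245. In both loci the old livers lay under 1 CPM and the young livers above 3 CPM. Only MSTRG.203591, on GL895864.2:154074-154711, was listed at 0 in an old liver, with 1.78, 2.15, 0.292 and 0 CPM and a difference of -1.38 (SE 0.20).

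MSTRG.203937, on GL895985.1:6885-9112, was at 3.44, 2.82, 0.357 and 0.780 CPM, a difference of -1.41 on the log2(CPM + 1) scale (SE 0.21). MSTRG.203935 ended 271 bases before it on the same scaffold and was at 5.06, 5.40, 2.60 and 0 CPM, so both neighbours had the old livers below the young livers. MSTRG.207751, on JH118641.1:35949-37249, stood at 3.43, 6.31, 1.30 and 1.64 CPM. The remaining 3 of the 8 had smaller gaps: MSTRG.197662 at 1.87, 3.02, 0.715 and 0.724 CPM, MSTRG.208199 at 1.84, 2.40, 0.894 and 0.418 CPM, and MSTRG.204350 at 1.73, 2.33, 0.975 and 0.877 CPM. Their differences were -0.98, -0.92 and -0.65 on the log2(CPM + 1) scale.

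**Figure D4:**
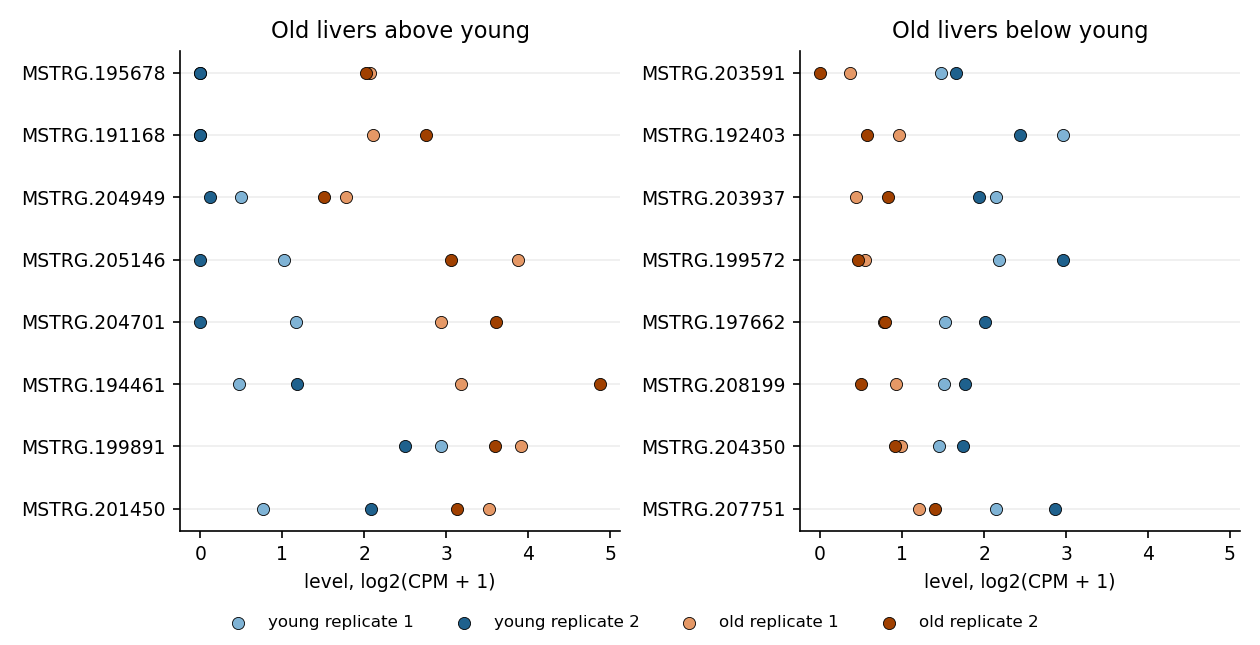
Level as log2(CPM + 1) (x axis) in each of the 4 livers, 1 row per locus, for the 8 loci with both old livers above (left) and the 8 with both old livers below both young livers (right) that had the smallest limma p among loci with a mean of at least 1 CPM. The loci were picked for this separation, and MSTRG.195678 has both young livers at 0 and its old livers close together, while the old livers of MSTRG.194461 lie far apart.

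The other loci with the highest means, apart from MSTRG.199891 described before, are given here. MSTRG.209158, on JH118887.1:32369-33104, was at 9.17, 11.6, 8.27 and 7.98 CPM, with both old livers slightly below the young livers. MSTRG.204588, on GL896210.1:1509-5942, was at 6.76, 9.22, 6.92 and 7.53 CPM and the ages overlapped. MSTRG.205612, on GL896412.1:23504-24973, was at 4.24, 7.36, 16.1 and 4.85 CPM, with the old liver of replicate 1 above the other 3. The 5 loci with the highest means made up 10.4% and 11.4% of the summed level in the young livers against 18.3% and 22.8% in the old.

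Where a scaffold held more than 1 of the loci, the order of the ages was compared between neighbours. Of 35 pairs of neighbouring loci, 20 had a difference between old and young of the same sign. In 2 pairs both loci had the old livers above the young livers, MSTRG.191167 with MSTRG.191168 and MSTRG.204701 with MSTRG.204705, although the last had only 1 and 2 reads in the old livers. In another 2 pairs both loci had the old livers below, MSTRG.203935 with MSTRG.203937 and MSTRG.204350 with MSTRG.204352. In 3 pairs 1 locus was above and the other below. No such counts were made for pairs of loci from different scaffolds, so these numbers describe the pairs only. Some neighbours overlap in span and the table gives no strand, so reads of overlapping loci cannot be told apart here.

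The loci of the 6 scaffolds with 3 loci each are described here. On GL892730.2, MSTRG.192403 lies below the young livers in both old livers, while MSTRG.192401 at 0.947, 4.03, 1.76 and 2.74 CPM and MSTRG.192402 at 4.14, 4.95, 3.38 and 6.22 CPM overlapped between ages. MSTRG.192402 and MSTRG.192403 overlap in span. On GL893088.1, MSTRG.193662 was at 0, 0, 0.942 and 1.09 CPM, and its neighbour MSTRG.193663 was present in all 4 livers at 0.261, 2.23, 2.21 and 0.877 CPM. The other locus of that scaffold, MSTRG.193655, was at 0.065 CPM in 1 old liver alone.

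On GL893994.1, MSTRG.197505 was at 0.163, 0.231, 1.14 and 0.919 CPM and MSTRG.197506 at 1.34, 0.335, 0.179 and 0.223 CPM, opposite orders on 1 scaffold. MSTRG.197501, also there, was at 0, 0.936, 0.081 and 0.111 CPM. On GL896329.2, MSTRG.205189 was at 0, 4.22, 1.51 and 0.111 CPM, so that the young livers lay on either side of the old livers, and MSTRG.205184 and MSTRG.205190 stayed at or below 0.370 CPM in every liver. On GL895985.1, MSTRG.203934 overlapped between ages at 0.468, 1.11, 1.07 and 1.03 CPM beside the pair described before. On GL896133.1, MSTRG.204352 was at 0.229, 0.566, 0.211 and 0.153 CPM and MSTRG.204347 at 0.065 CPM in 1 old liver alone.

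Circular RNAs (circRNAs), closed transcripts read from their back-splice junctions, were listed at 222 places on GL and JH scaffolds of 6366 in all. Of these, 47 and 32 were above 0 in the young livers against 87 and 141 in the old. The shares of all 6366 circRNAs above 0 in each liver were not counted here. Over the whole set the paper reports more circRNAs found only in old than only in young livers. This order therefore cannot be called particular to the scaffolds. On the scaffolds of the 265 loci there were 30 circRNAs, and 2 of the loci overlapped at least 1 of them. Within the span of MSTRG.192401 lay 1 circRNA with a value in the old liver of replicate 1 and 1 with a value in that of replicate 2. MSTRG.192684, on GL892813.1:32728-38631, was at 0.457, 0, 0.130 and 0.251 CPM, and a circRNA in its span had values of 0.429 and 0.449 in the old livers and was listed at 0 in both young livers.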

How the data were processed

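Reads were mapped by the authors onto Sscrofa10.2 (TopHat2 2.0.14). They assembled transcripts with StringTie 1.2.3, removed transcripts with coding potential, and estimated levels with Salmon 0.6.0 (versions as in the paper's methods and the submitters' processing notes). The deposited lncRNA and mRNA values, which the authors name TPM, were whole multiples of 1 step per library within 0.1 read and are therefore CPM, so whole reads were recovered. The deposited circRNA values are a signal that the authors scaled per library in a way not given in the sources used here, and the strand used for counting is not given either. The miRNA libraries were not used here.

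Scaffold loci were the lncRNAs on GL or JH scaffolds with a mean of the 4 livers under 10 CPM. These loci, the gene lists and the tests were chosen with earlier results of these data known. Old and young livers were compared with limma 3.58.1 on log2(CPM + 1), without a replicate term, over lncRNAs above 0 in at least 2 livers, with Benjamini-Hochberg adjustment over all lncRNAs tested. Recovered reads were tested with edgeR 4.0.16 (exact test with common and tagwise dispersion, and quasi-likelihood) and DESeq2 1.42.0. The depth ranged from 28324675 to 52207649 reads on listed genes. Counts and sums per liver were compared by exact permutation over the 4 livers. Scripts were tested on data drawn with known fold changes, at dispersions lower than the common dispersion of 1.35 estimated for the lncRNAs here. DESeq2 was not part of that test.

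Loci were named by rule, namely MSTRG.195678 and its nearest 5 lncRNAs, the 8 per direction with the smallest limma p among separated loci with a mean of at least 1 CPM, the 5 with the highest mean, those next to the limit of 10 CPM, the 4 with the most reads in both livers of 1 age and none in the other, those called by the exact test, those on the scaffolds with most loci (6 were tied and kept, although 3 were intended) and those overlapping a circRNA. Neighbours of named loci and the 3 loci found in young livers only were added after their values were seen. Alternatives were other pseudocounts, filters, scalings, tools, detection limits, and leaving out each liver. Labels call the 4 pigs separate samples, so p-values measure the spread between animals. Sequences of the scaffolds were not analysed here.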

Additional observations from a re-analysis of the deposited data

How the results depend on the processing

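For calls between ages, limma gave 0 scaffold loci with a pseudocount of 0.1, without a filter, with a mean of at least 0.1 CPM, with TMM, together with mRNAs, with a mean-variance trend, without each liver and over all 295 scaffold loci, and the quasi-likelihood test gave 0. The exact test of edgeR gave 3, DESeq2 26, and the exact test with a trended dispersion, an alternative chosen after seeing the data, 21, which is 1.40%, 12.1% and 9.81% of the 214 loci tested, against 0.774%, 11% and 8.43% of all lncRNAs tested. The calls of these tests included loci that had passed the filter through the old livers alone, so they describe the loci only. With a replicate block limma gave 0 (18 higher and 9 lower at an unadjusted p under 0.05). The replicate numbers only name the pigs, and deviations of livers with the same number correlated with r = 0.0586 across genes. Loci found in old livers only outnumbered those in young livers only 32.7 times, and 33.6 times at equal depth, 12.1 times with more than 3 reads, 8.11 times with at least 0.1 CPM, 4.21 times with more than 10 reads (chosen after seeing the data) and 1.0 times with at least 1 CPM. For all lncRNAs these ratios were 11.6 above 0, 6.82 with more than 3 reads, 4.25 with at least 0.1 CPM, 2.59 with more than 10 reads and 0.641 with at least 1 CPM. Without 1 liver the ratio lay between 6.08 (without the old liver of replicate 1) and 122 (without the young liver of replicate 2). It was 9.38 without the old liver of replicate 2 and 73.5 without the young liver of replicate 1. By the way the loci are counted, leaving out an old liver cannot raise this ratio and leaving out a young liver cannot lower it. Found in both livers of an age, the counts were 50 and 0, which gives no ratio, against 626 and 6 of all lncRNAs. The summed level, old over young, was 0.988. It turned to 1.15 with TMM, 1.49 for loci with a mean under 1 CPM and 1.40 over all 295 scaffold loci (0.950 without MSTRG.207324, an alternative chosen after seeing the data), lay between 0.929 and 1.06 without 1 liver, and was 0.920 as a share of lncRNA reads without the most abundant lncRNA. The gap to chromosomal loci kept its direction under all alternatives run, between 5.35 and 8.00 points. The causes of the other shifts were not tested. With 2 livers of each age no exact permutation test over livers can pass 0.05, and loci under about 3 reads in a library cannot be told from 0.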

Other observations

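The 30 scaffold loci with a mean of 10 CPM or more are not among the 265. Of these, 6 had both old livers above both young livers and 9 had both below, against 31 and 50 of the 138 lncRNAs with a mean of 10 CPM or more. MSTRG.207324, on JH118554.1:8127-8505, was at 46.4, 68.2, 735 and 1053 CPM in the order young 1, young 2, old 1, old 2, and MSTRG.193237, on GL892962.1:17014-17362, was at 24.8, 14.5, 11.8 and 346 CPM, so that its level in the old liver of replicate 2 stood apart. MSTRG.193023, on GL892911.1:273634-274361, was high in all 4 livers at 549, 521, 342 and 530.2 CPM. All 3 loci were chosen after their values were seen.

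Markers of other cell types were counted beside the hepatocyte genes. Macrophage genes (5 of 7 found) summed to 205 and 227 CPM in young and 293 and 285 CPM in old livers. Most of this sum was C1QA, at 181, 204, 255 and 241 CPM. C1QA, MARCO and CD68 were higher in both old livers, while LYZ and CSF1R overlapped between ages. T and NK cell genes (4 of 7 found) summed to 5.48 and 7.10 CPM in young and 16.3 and 8.56 CPM in old livers, and of these CD3D overlapped between ages. Erythroid genes (3 of 6 found) summed to 622 and 429 CPM in young and 306 and 405 CPM in old livers. Nearly all of this sum was HBB, and SLC4A1 overlapped between ages. Sums of cholangiocyte genes (3 of 5 found), B and plasma cell genes (4 of 6), endothelial genes (3 of 6), stellate cell and fibroblast genes (6 of 7) and skeletal muscle genes (2 of 8) were 7.33 to 18.4, 2.42 to 12.4, 26.8 to 62.6, 12.9 to 48.3 and 0.081 to 2.16 CPM over the 4 livers. Their part in the detection of scaffold loci was not tested.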
